A study of Mus musculus with 16 samples.

Results

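Fat tissue releases hormones and other secreted proteins known as adipokines, and 9 of their genes other than leptin were followed here in inguinal white adipose tissue (iWAT) of mice: Adipoq, Retn, Cfd, Rbp4, Rarres2, Agt, Apln, Sfrp5 and Nampt. They were taken by name from the 54752 gene IDs of the count table, by a rule that uses no measured value. The list of names itself was chosen with earlier results of these data known. Each of the 9 was counted in every library and passed the filter on low counts. As background, leptin reports fat stores to the brain, whereas these genes encode signals of other kinds. Adiponectin and resistin act on glucose and lipid metabolism, adipsin is a protease of the complement system, and the carrier RBP4 transports retinol. Chemerin, angiotensinogen and apelin give rise to ligands of G protein-coupled receptors, SFRP5 binds Wnt proteins outside the cell, and NAMPT makes a precursor of NAD and is also found outside cells under the name visfatin.

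The study crossed a mouse model of amyotrophic lateral sclerosis with mice that keep only a single working copy of the leptin gene, to ask how fat tissue responds to both mutations. There were 4 genotypes with 4 libraries each, all from C57BL/6 mice labelled female and aged 90 days. WT mice carried neither allele. Lepob/+ mice carried a single copy of the ob allele, a loss-of-function allele of Lep, and kept a single normal copy. SOD1-G93A mice carried a high-copy transgene of human SOD1 with the G93A mutation, which is driven by the promoter of the human gene and is therefore expressed in many tissues and not in fat alone. SOD1-G93A Lepob/+ mice, called double mutants below, carried both. The human transgene was not analysed here. The labels do not say that libraries came from separate litters, so p-values measure the spread between these samples.

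Libraries held 36795376 to 61886313 counts, and the 9 adipokines together took 0.318 to 1.28% of them. Several libraries stood apart in ways that touch the results. A list of 8 lymph node genes covered stroma and high endothelial venules, and held Fcer2a and Cr2, which B cells also express. It summed to 574 to 1290 CPM (counts relative to library size, scaled by TMM) in 6 libraries, and to 4.75 to 47.2 CPM in the other 10. The same split held for 11 T cell genes (716 to 1404 against 14.9 to 32.8 CPM). It also held for 7 B cell genes (490 to 1549 against 5.08 to 21.4 CPM), which are not independent of Fcer2a and Cr2. The 6 rich libraries were WT replicates 1 and 2, Lepob/+ replicate 3, and SOD1-G93A replicates 1, 2 and 4. No double-mutant library was rich, and replicate 3 was the only SOD1-G93A library that was poor. Lepob/+ replicate 4 held 160300 CPM of 8 skeletal muscle genes, against at most 4046 CPM elsewhere, and double-mutant replicate 3, labelled female, held no Xist and had counts of Y-linked genes. The 14 mature adipocyte genes listed were present in every library, summing to 6410 to 14400 CPM. In bulk tissue, fewer cells of a type and less RNA per cell cannot be told apart.

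Levels spanned a wide range. Per length, as FPKM (CPM per kilobase of exon, a level), the mean over the 16 libraries was 5673 ± 1644 (SD, n = 16) for Cfd, which ranked 10 of 54723 genes, and 1473 ± 508 for Adipoq, which ranked 28. Retn followed at 497 FPKM, Rbp4 at 215 FPKM and Rarres2 at 82.0 FPKM. Nampt at 19.98 FPKM, Agt at 19.3 FPKM and Sfrp5 at 17.3 FPKM lay close together, and these neighbours did not differ beyond their spread over libraries (5.90, 12.7 and 19.0 FPKM SD). Apln was lowest at 3.63 FPKM and ranked 9655. The length used was the union of all annotated exons, which for genes with several transcripts can exceed the main mRNA and lower the FPKM. Spread between libraries also differed by gene: the highest library held 28.9 times the CPM of the lowest for Sfrp5 and 12.9 times for Agt, against 2.54 to 3.93 times for the other 7.

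**Figure D1:**
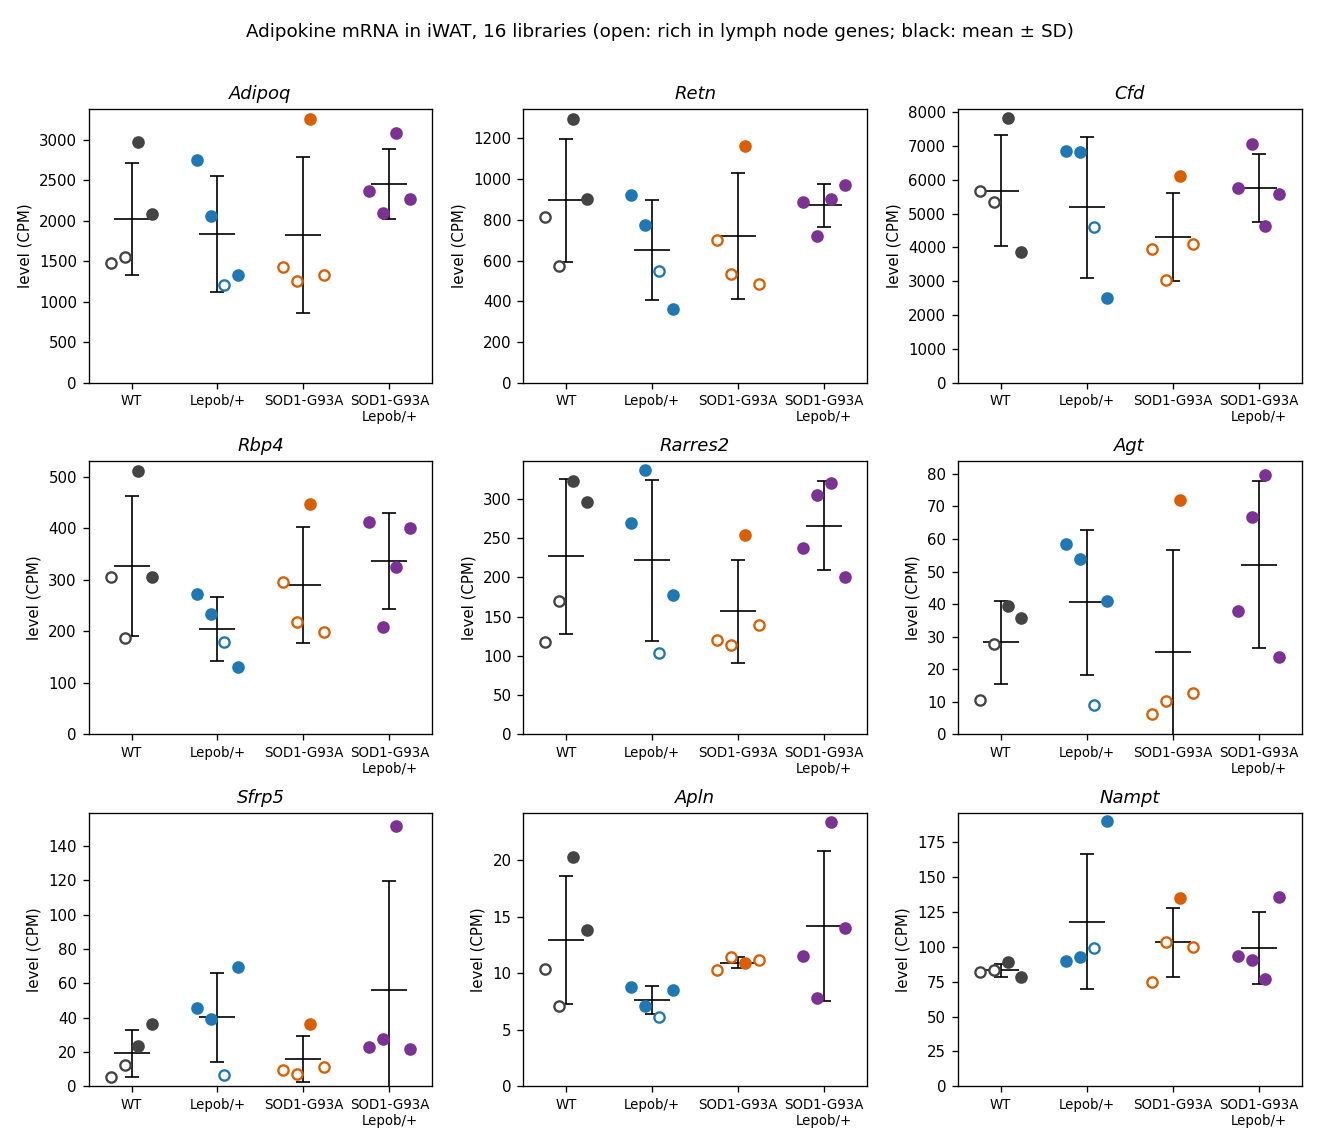
Level of each adipokine in CPM (linear axis from 0) in the 16 iWAT libraries by genotype, with the mean and SD of 4 libraries in black. Open points are the 6 libraries rich in lymph node genes; pairs of genotypes overlapped apart from Nampt in Lepob/+ (90.1 to 190 CPM) and WT (78.1 to 88.9 CPM) and Apln in Lepob/+ (6.10 to 8.75 CPM) and SOD1-G93A (10.3 to 11.4 CPM), and open points lay low for Sfrp5, Agt and Rarres2.

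Adipoq encodes adiponectin, a hormone that enhances insulin sensitivity and is made almost exclusively by adipocytes. The gene (ENSMUSG00000022878) lies at chr16:23146536-23158028 on the plus strand of GRCm38. Adipoq was measured at 1473, 1547, 2973 and 2086 CPM in WT replicates 1 to 4, and at 2753, 2062, 1209 and 1335 CPM in Lepob/+. In SOD1-G93A it was at 1428, 1262, 3262 and 1331 CPM, and in double mutants at 2373, 2097, 3089 and 2267 CPM. The 4 double-mutant values were close to each other, with an SD of 437 CPM around 2456, while in SOD1-G93A replicate 3 stood far above 3 low libraries and the SD was 963 CPM around 1821. All genotypes overlapped.

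Retn encodes resistin, a small secreted protein that mouse adipocytes make and that counters insulin action. It lies at chr8:3655770-3660110. Retn had its lowest value of 361 CPM in Lepob/+ replicate 4, the library rich in muscle RNA, and its highest of 1298 CPM in WT replicate 3. The means were 897 ± 302 CPM in WT, 651 ± 247 in Lepob/+, 720 ± 309 in SOD1-G93A and 871 ± 107 in double mutants (SD, n = 4 each). The double mutants lay inside the range of WT.

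Cfd encodes adipsin (complement factor D), the protease that cleaves factor B in the alternative pathway of complement, and it lies at chr10:79890853-79892655. Cfd was at 5661, 5353, 7824 and 3863 CPM in WT, and at 6840, 6832, 4599 and 2488 CPM in Lepob/+. It was at 3947, 3039, 6114 and 4094 CPM in SOD1-G93A and at 5759, 7055, 4639 and 5579 CPM in double mutants. In SOD1-G93A, 3 libraries lay below each double-mutant library, and replicate 3 lay above all but 1 of them.

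Rbp4 encodes the plasma carrier of retinol, made by liver and fat, and lies at chr19:38116629-38125281 on the minus strand. Rbp4 was at 305, 186, 512 and 304 CPM in WT and at 271, 234, 179 and 130 CPM in Lepob/+. It was at 295, 218, 447 and 198 CPM in SOD1-G93A and at 412, 208, 324 and 401 CPM in double mutants. Lepob/+ had the lowest mean, 204 ± 61.98 CPM, and 1 WT library, 2 SOD1-G93A libraries and 1 double-mutant library lay within its range. Its lowest values came from replicate 3, rich in lymph node genes (179 CPM), and replicate 4, rich in muscle RNA (130 CPM).

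Rarres2 encodes chemerin, whose processed form attracts immune cells and acts on adipocytes through the receptor Cmklr1. It lies at chr6:48569696-48572789, and its exons overlap those of Lrrc61 on the opposite strand, which had 125 to 1793 counts per library. The strand setting of the counting was not given, so reads of the pair may not be separated. Rarres2 was at 117, 170, 324 and 296 CPM in WT and at 269, 336, 104 and 177 CPM in Lepob/+. It was at 120, 114, 254 and 139 CPM in SOD1-G93A and at 238, 305, 320 and 200.4 CPM in double mutants. Within WT, Lepob/+ and SOD1-G93A the libraries rich in lymph node genes were the lowest.

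Agt encodes angiotensinogen, the precursor from which renin and then the converting enzyme release angiotensin II, and lies at chr8:124556534-124569706 on the minus strand. Agt was at 10.7, 27.7, 39.5 and 35.6 CPM in WT and at 58.5, 53.8, 9.13 and 41.1 CPM in Lepob/+. It was at 6.16, 10.1, 72.0 and 12.6 CPM in SOD1-G93A and at 38.01, 66.9, 79.7 and 23.9 CPM in double mutants. SOD1-G93A replicate 3 thus exceeded the other SOD1-G93A libraries by more than the whole spread among them, and reached into the upper part of the double-mutant range.

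Apln encodes the precursor of apelin, a peptide that acts on vessels and heart through Aplnr, and lies at chrX:48025146-48034853 on the minus strand. Apln was at 10.4, 7.10, 20.3 and 13.9 CPM in WT and at 8.75, 7.14, 6.10 and 8.53 CPM in Lepob/+. It was at 10.3, 11.4, 10.9 and 11.2 CPM in SOD1-G93A and at 11.6, 7.77, 23.4 and 14.02 CPM in double mutants. The SOD1-G93A libraries were close to each other, with an SD of 0.505 CPM around 10.9, and WT and the double mutants were widely spread. Lepob/+ overlapped with WT and with the double mutants at the lower end of both, and lay below every SOD1-G93A library, a pair of genotypes that was not among the comparisons tested and in which 0.74% of all genes were higher in SOD1-G93A without overlap.

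Sfrp5 encodes a secreted frizzled-related protein known in fat as an antagonist of Wnt5a, and lies at chr19:42197971-42202252 on the minus strand. Sfrp5 was at 5.24, 12.1, 23.5 and 36.4 CPM in WT and at 45.6, 39.3, 6.36 and 69.3 CPM in Lepob/+. It was at 9.38, 7.02, 36.03 and 10.9 CPM in SOD1-G93A and at 22.6, 27.5, 152 and 21.9 CPM in double mutants. Double-mutant replicate 3 held several times the level of the other 3, and SOD1-G93A replicate 3 was again the high library of its genotype.

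Nampt encodes nicotinamide phosphoribosyltransferase, the rate-limiting enzyme of NAD salvage, and lies at chr12:32819545-32853349. Nampt was at 81.9, 83.7, 88.9 and 78.1 CPM in WT and at 90.1, 92.8, 99.4 and 190 CPM in Lepob/+. It was at 74.9, 103, 135 and 100.2 CPM in SOD1-G93A and at 93.3, 90.7, 77.1 and 136 CPM in double mutants. WT was tight (SD 4.48 CPM around 83.2), and the Lepob/+ libraries all lay above it, with replicate 4, rich in muscle RNA, far above the other 3.

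The promoters of the 3 members that moved most closely together among the libraries poor in lymph node genes (Retn, Rbp4 and Adipoq, described below) and of the 2 with the widest range (Agt and Sfrp5) are printed here. RefSeq gives a start site on GRCm38.p6 for 8 of the 9 members; Rarres2 was not matched. Of the 2 starts listed for Rbp4, the one whose window lies outside its annotated exons is shown; the window of the other held a TATA box at 28 bases and a C/EBP-like site at 128 bases before its start. Each run is the 250 bases before the start, 5′ to 3′ on the gene's strand, with matches to a TATA box (TATAAA) or a CCAAT box (CCAAT), searched on both strands, in capitals.
Adipoq, chr16:23146286-23146535, plus strand: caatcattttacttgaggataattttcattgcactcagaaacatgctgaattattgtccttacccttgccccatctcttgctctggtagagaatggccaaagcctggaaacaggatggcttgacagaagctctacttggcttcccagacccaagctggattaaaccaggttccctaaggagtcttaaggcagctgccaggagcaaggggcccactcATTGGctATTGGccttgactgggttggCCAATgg
Retn, chr8:3655520-3655769, plus strand: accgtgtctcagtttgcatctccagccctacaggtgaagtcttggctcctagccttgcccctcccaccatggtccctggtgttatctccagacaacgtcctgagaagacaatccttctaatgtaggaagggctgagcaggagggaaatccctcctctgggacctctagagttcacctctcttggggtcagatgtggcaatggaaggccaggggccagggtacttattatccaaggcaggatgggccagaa
Rbp4, chr19:38125322-38125571, minus strand: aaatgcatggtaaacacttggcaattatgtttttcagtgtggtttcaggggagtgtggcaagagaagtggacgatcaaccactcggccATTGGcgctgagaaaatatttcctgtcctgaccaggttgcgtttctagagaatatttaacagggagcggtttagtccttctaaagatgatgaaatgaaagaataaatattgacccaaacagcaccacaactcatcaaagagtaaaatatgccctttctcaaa
Agt, chr8:124569707-124569956, minus strand: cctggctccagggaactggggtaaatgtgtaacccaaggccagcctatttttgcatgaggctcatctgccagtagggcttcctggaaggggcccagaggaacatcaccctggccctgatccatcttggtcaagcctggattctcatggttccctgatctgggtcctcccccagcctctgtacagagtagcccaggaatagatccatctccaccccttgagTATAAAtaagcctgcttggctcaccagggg
Sfrp5, chr19:42202253-42202502, minus strand: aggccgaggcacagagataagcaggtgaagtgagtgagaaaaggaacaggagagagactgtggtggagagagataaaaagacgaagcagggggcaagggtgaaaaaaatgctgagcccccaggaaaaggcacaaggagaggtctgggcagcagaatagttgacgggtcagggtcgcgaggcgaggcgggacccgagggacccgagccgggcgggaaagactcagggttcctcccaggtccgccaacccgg
Adipoq held 3 CCAAT boxes, at 34, 27 and 7 bases before the start, and Rbp4 held 1, at 162 bases. Agt held a TATA box at 30 bases before the start. Of 32851 promoters of the same length, 33.8% held CCAAT and 12.4% held TATAAA on either strand. The letters of an E box (CACGTG, in 6.02% of promoters), of a C/EBP-like site (TTGCNNAA, in 9.56%) and of the direct repeat bound by PPARG and its partner (DR1 element, in 0.0335%) were not in these 5 windows. The windows of Retn and Sfrp5 held none of the motifs searched.

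The effect of leptin haploinsufficiency alone was addressed by Lepob/+ against WT. Apln was 0.76 ± 0.32 (SE) lower on the log2 scale (95% interval -1.45 to -0.07), Rbp4 0.68 ± 0.34 lower and Nampt 0.51 ± 0.25 higher, and none of them passed the test. EdgeR's quasi-likelihood test called 0 of the 9 members at an adjusted p under 0.05, as it called 0% of the 19736 genes tested, and DESeq2 on the compared genotypes (0.0174% of genes) and limma voom (0%) called 0 of 9 as well. At an unadjusted p under 0.05 there was 1 member, Apln (adjusted p = 1.0 by edgeR), beside 4.37% of all genes and 0.811% of all genes in the lower direction. Of the 9 members 3 had a fold change above 0 (55.6% of all genes), and their median log2 fold change was -0.13, against 0.033 for all genes. In the same comparison 11 of 14 mature adipocyte genes lay below 0, with a median of -0.11. So did 5 of 8 lymph node genes, while 8 of 8 skeletal muscle genes lay above 0. EdgeR called 0 of each list, and their part in the member values was not tested. Without WT replicate 3, which had the highest Apln of WT, the log2 fold change of Apln was -0.46. That of Rbp4 ranged from -0.88 to -0.38 without each library in turn.

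Nampt was the only member whose libraries did not overlap in this comparison, with Lepob/+ above WT, as did 0.907% of all genes in either direction and 0.532% in the higher one. Its lowest Lepob/+ value was 90.1 CPM and its highest WT value 88.9 CPM. Without Lepob/+ replicate 4 its log2 fold change was 0.16 in place of 0.51. That library held 160300 CPM of skeletal muscle genes, and the part of muscle RNA in the Nampt value was not tested. Adipoq and Cfd were near even, at -0.13 ± 0.35 and -0.13 ± 0.32. Adipoq turned to 0.11 without WT replicate 3, to 0.0092 without Lepob/+ replicate 3 and to 0.31 under limma voom.

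SOD1-G93A against WT asked for the effect of the transgene alone. The members lay mostly lower, with log2 fold changes from -0.53 ± 0.39 for Rarres2 to 0.31 ± 0.25 for Nampt, the only one above 0 (53% of all genes were above 0). Their median was -0.24, against 0.021 for all genes. Of the 14 mature adipocyte genes listed, 14 lay below 0 as well, with a median of -0.27 and 0 called by edgeR. The part of adipocyte content in the member values was not tested. EdgeR called 0 of 9 members (0% of genes called) and found 0 of 9 at an unadjusted p under 0.05 (2.56% of genes), the smallest being 0.19 for Rarres2. DESeq2 (0.062% of genes) and limma voom (0%) called 0 of 9. Adipoq was at -0.15 ± 0.35, and its interval of -0.91 to 0.61 leaves room for changes either way. In SOD1-G93A 3 of the 4 libraries and in WT 2 of the 4 were rich in lymph node genes. With the mean of the lymph node genes as a covariate Adipoq was at 0.0185, with that of the adipocyte genes at 0.12, and among the poor libraries (1 SOD1-G93A library against 2 WT libraries) at 0.35.

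Double mutants against SOD1-G93A mice addressed the effect of leptin haploinsufficiency on the disease background. Here 8 of the 9 members had a log2 fold change above 0, where 50.1% of all genes did, and the median of the members was 0.42, against 0.0005 for all genes. The values were 1.82 ± 0.85 for Sfrp5, 1.05 ± 0.74 for Agt, 0.76 ± 0.39 for Rarres2, 0.43 ± 0.35 for Adipoq and 0.42 ± 0.32 for Cfd, with Nampt at -0.06 ± 0.25. EdgeR called 0 of 9 (0% of genes called), with adjusted p from 0.303 for Sfrp5 to 0.926 for Nampt, and 0 of 9 reached an unadjusted p under 0.05 (16.5% of genes), Sfrp5 being at 0.05. DESeq2 called 0 of 9 (7.77% of genes). Limma voom with quality weights called 5 of 9 as higher, Adipoq, Retn, Cfd, Agt and Rarres2, where it called 31.7% of all genes, and 12.6% as higher; it gave SOD1-G93A replicate 3, the highest library of its genotype for each member other than Apln, a weight of 0.263 against 1.03 to 2.41 for the other 3.

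The same comparison set 4 libraries poor in lymph node genes against 3 rich ones and 1 poor one. The lymph node list, with all 8 of its genes tested, summed to 7.60 to 47.2 CPM in double mutants and to 13.7 to 1290 CPM in SOD1-G93A, and the mature adipocyte list to 11560 to 13870 CPM and to 6410 to 12920 CPM. With the mean of the lymph node genes as a covariate the log2 fold change of Rarres2 was 0.0024, that of Sfrp5 0.34 and that of Adipoq -0.12. This covariate largely follows genotype in these libraries, so the parts of genotype and lymph node content cannot be told apart by that fit. Among the poor libraries alone, with a single SOD1-G93A library (replicate 3) that is assumed to vary like the others, Rarres2 was at 0.07, Sfrp5 at 0.64, Adipoq at -0.40, Cfd at -0.08 and Agt at -0.46. Without that library Agt was at 2.44 and Sfrp5 at 2.62, and without double-mutant replicate 3, the library with Y-linked RNA, Sfrp5 was at 0.60. No member was called by edgeR in any of these fits.

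**Figure D2:**
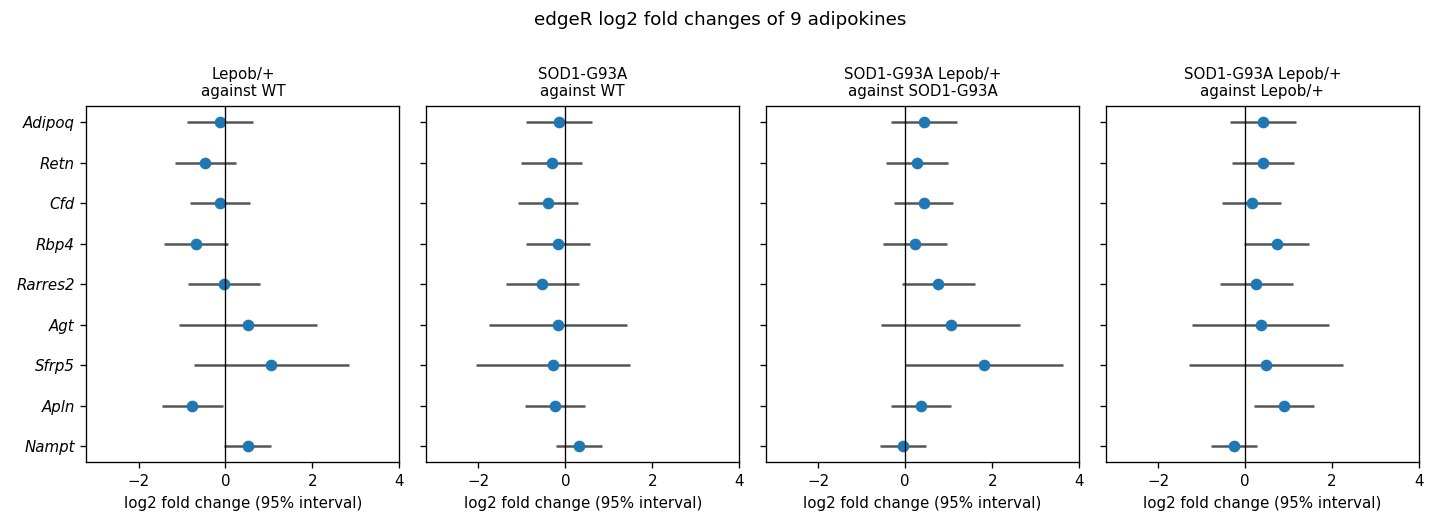
Log2 fold changes of the 9 adipokines by edgeR (points) with 95% intervals (bars) in 4 comparisons of 4 libraries with 4. Intervals crossed 0 apart from those of Apln in Lepob/+ against WT and in double mutants against Lepob/+, and were widest for Sfrp5 and Agt.

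Double mutants against Lepob/+ mice asked for the effect of the transgene on the haploinsufficient background. Apln was 0.89 ± 0.32 higher on the log2 scale (95% interval 0.20 to 1.59), Rbp4 0.72 ± 0.34 higher and Adipoq 0.42 ± 0.35 higher. EdgeR called 0 of 9 members (0% of genes called), as did DESeq2 (0.146% of genes) and limma voom (0.0101%). Apln was the only 1 of 9 at an unadjusted p under 0.05 (adjusted p = 0.597 by edgeR), beside 8.24% of all genes and 1.96% in the higher direction. Fold changes were above 0 for 8 of 9 members and 42.1% of all genes, with medians of 0.42 and -0.062. Without double-mutant replicate 3 Apln was at 0.54. Between these genotypes 13 of 14 mature adipocyte genes lay above 0, with a median log2 fold change of 0.39, and 8 of 8 skeletal muscle, 8 of 8 lymph node and 7 of 7 B cell genes below 0, none of them called by edgeR, and their part in the member values was not tested.

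Pooling both backgrounds, 8 carriers of Lepob/+ were set against 8 non-carriers. Sfrp5 was 1.44 ± 0.59 higher in carriers (95% interval 0.17 to 2.71), Agt 0.78 ± 0.52 and Rarres2 0.36 ± 0.28 higher, and Rbp4 was at -0.23 ± 0.24. EdgeR called 0 of 9 (0% of genes called), with Sfrp5 as the only 1 of 9 at an unadjusted p under 0.05 (adjusted p = 0.512), beside 9.64% of all genes and 3.25% in the higher direction. Limma voom called 4 of 9 as higher, Adipoq, Agt, Sfrp5 and Rarres2, where it called 20.7% of genes and 8.3% as higher, and DESeq2 on all libraries called 0 of 9 (0.235% of genes). Fold changes were above 0 for 6 of 9 members and 54.1% of all genes. Of the non-carriers 5 of 8 libraries were rich in lymph node genes, and of the carriers 1 of 8. With those genes as a covariate Sfrp5 was at 0.39 and Agt at -0.0087, and without double-mutant replicate 3 Sfrp5 was at 0.83.

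The 8 carriers of the SOD1-G93A transgene and the 8 non-carriers were closest, with member fold changes from -0.14 for Rarres2 to 0.33 ± 0.23 for Apln. EdgeR called 0 of 9 (0% of genes called), 0 of 9 were at an unadjusted p under 0.05 (3.2% of genes), and DESeq2 (0.147% of genes) and limma voom (0%) called 0 of 9. Of the members 7 of 9 lay above 0, and of all genes 46.4%. The interaction, whether the effect of Lepob/+ differed with and without the transgene, was largest for Apln at 1.13 ± 0.46 (95% interval 0.16 to 2.11), followed by Rbp4 at 0.90 ± 0.49, Rarres2 at 0.79 ± 0.55, Sfrp5 at 0.76 ± 1.17 and Retn at 0.74 ± 0.47. Again edgeR called 0 of 9 (0% of genes called), with Apln as the only 1 of 9 at an unadjusted p under 0.05 (adjusted p = 0.564), beside 7.98% of genes and 2.16% in the higher direction, and DESeq2 (0.228% of genes) and limma voom (0%) called 0 of 9. Of the members 8 of 9 had an interaction above 0, as did 42.5% of all genes. So did 13 of 14 mature adipocyte genes, with a median of 0.60, while 8 of 8 lymph node genes were below 0, and their part was not tested. Without double-mutant replicate 3 the interaction of Apln was 0.78, and without WT replicate 3 it was 0.83. These comparisons share libraries, so the values of Apln in Lepob/+ against WT, in double mutants against Lepob/+ and in the interaction rest on the same 4 low Lepob/+ libraries.

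Members differed in how they followed the lymph node split, which is described here without a test since the libraries were grouped after their values were seen. Sfrp5 was at 5.24 to 12.1 CPM in the 6 rich libraries and at 21.9 to 152 CPM in the 10 poor ones, and Rarres2 at 104 to 170 and at 177 to 336 CPM. Both ranges did not overlap, as held for 15.5% of all genes in either direction and for 4.23% with the rich libraries lower. Agt was at 6.16 to 27.7 CPM in the rich and at 23.9 to 79.7 CPM in the poor libraries, overlapping through WT replicate 2 and double-mutant replicate 4. The difference of medians on the log2 scale, poor minus rich, was 2.17 for Agt, 2.15 for Sfrp5 and 1.25 for Rarres2, smaller for Adipoq at 0.75, Retn at 0.69, Rbp4 at 0.60 and Cfd at 0.45, and near 0 for Apln at 0.12 and Nampt at 0.0077, with 0.023 over all genes. Lep itself showed 1.55. Summed mature adipocyte genes had a median of 7744 CPM in the rich and 12520 CPM in the poor libraries. The part of lymph node or adipocyte content in each value was not tested.

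**Figure D3:**
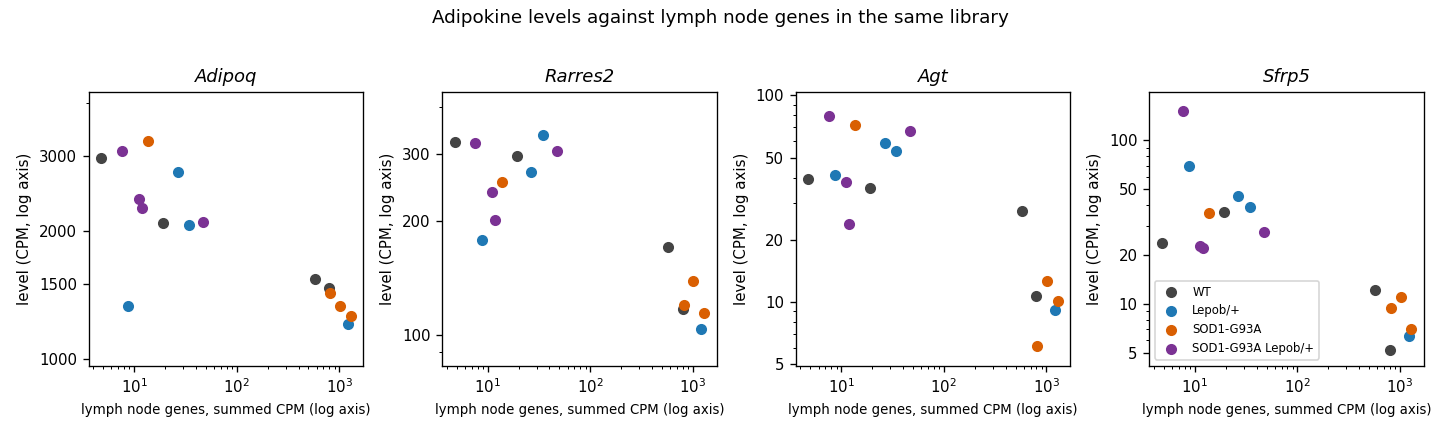
Level of 4 adipokines (CPM, log axis) against the summed CPM of 8 lymph node genes (log axis) in the 16 libraries, coloured by genotype. The 6 libraries at 574 CPM or more lay below the other 10 for Rarres2 and Sfrp5; for Adipoq the muscle-rich Lepob/+ library (1335 CPM) joined them, and for Agt the ranges overlapped.

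Because the libraries fell into these 2 clusters, relations between members were computed within each, over 36 pairs. Among the 10 poor libraries Retn and Rbp4 moved together (Pearson's r = 0.932, permutation p = 4e-05, adjusted p = 0.00144; Spearman's rho = 0.83, adjusted p = 0.17), and without the 2 libraries farthest from the median of Retn r was 0.857. Adipoq and Retn had r = 0.893 (permutation test, adjusted p = 0.0257; rho = 0.709, adjusted p = 0.216), and 0.644 without the 2 farthest libraries. Adipoq and Rbp4 had r = 0.813 (permutation test, adjusted p = 0.048; rho = 0.758, adjusted p = 0.216), and 0.506 without them. Nampt and Rarres2 were opposed at r = -0.859 (permutation test, adjusted p = 0.032; rho = -0.721, adjusted p = 0.216), and at -0.51 without the 2 libraries farthest from the median of Nampt. By r, 4 of 36 pairs passed and by rho 0 did. With the 2 farthest libraries left out, which leaves 8 and a narrower range, 0 passed. That included Retn with Rbp4 (permutation test, adjusted p = 0.138). The calls thus did not hold without those libraries. Fewer libraries also raise p-values, so whether the calls rest on the libraries left out cannot be told. Of the 10, Lepob/+ replicate 4, rich in muscle RNA, was lowest for Retn (361 CPM), Rbp4 (130), Adipoq (1335) and Rarres2 (177). It was highest for Nampt (190 CPM), and r without it alone was not computed. Among the 6 rich libraries 0 of 36 pairs passed the exact permutation test, the highest r again being 0.867 for Retn with Rbp4 (rho = 0.543, exact permutation p = 0.0444, adjusted p = 0.488). With 6 libraries the smallest exact permutation p is 0.00139, so a single pair among 36 could not go under an adjusted p of 0.05 there.

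**Figure D4:**
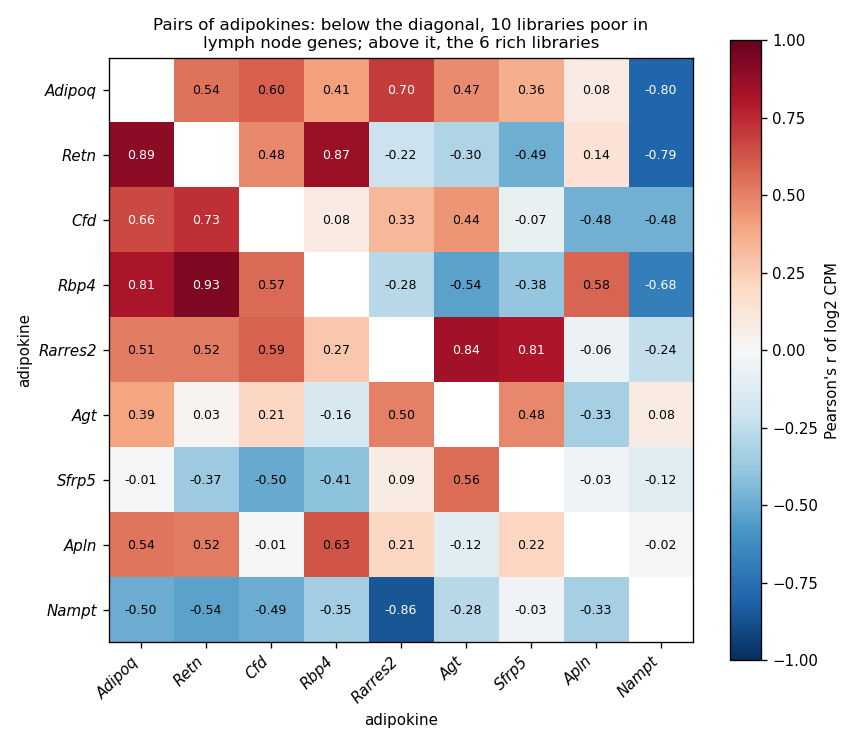
Pearson's r between log2 CPM of each pair of adipokines, in the 10 libraries poor in lymph node genes (below the diagonal) and in the 6 rich ones (above it). Below the diagonal Adipoq, Retn, Cfd and Rbp4 form a block of positive values (0.57 to 0.93). Nampt is negative with each of the others there, though only at -0.03 with Sfrp5. Both patterns changed without the 2 libraries farthest from the median of a gene of the pair (not drawn). Cfd was then at 0.13 with Adipoq, -0.27 with Retn and -0.13 with Rbp4, and the block's other pairs stayed positive. Nampt was then positive with Retn (0.58), Rbp4 (0.56) and Agt (0.29), and negative with the rest.

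Set against the mean log2 level of each of 12 cell type lists, 108 relations in all, 0 passed within either cluster, and among the 6 rich libraries a single relation could not have passed. Among the 10 poor libraries the mature adipocyte genes had r = 0.858 with Cfd, 0.842 with Adipoq, 0.809 with Retn and 0.77 with Rbp4 (permutation tests, adjusted p 0.116, 0.116, 0.134 and 0.209), and r = -0.344 with Sfrp5 and 0.177 with Agt. The 10 include the muscle-rich Lepob/+ replicate 4, their lowest library for Cfd (2488 CPM), Adipoq, Retn and Rbp4. Apln had its highest r, 0.834, with brown and beige adipocyte genes (permutation test, adjusted p = 0.116).

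The genes whose pattern over the 16 libraries was most like that of a member are given by Pearson's r over 19727 genes, as a description; the libraries share the lymph node split. For Adipoq these were Atxn10 (r = 0.982) and Aplp2 (0.973), for Retn Bscl2 (0.962) and Galm (0.961), for Cfd Ormdl3 (0.928) and Dhrs7b (0.926), and for Rbp4 4930402H24Rik (0.973). For Rarres2 they were Wtip (0.978) and Palm (0.974), for Sfrp5 Arvcf (0.968) and Lamb2 (0.949), and for Agt Camk1 (0.957). Apln was most like Cdr2 (0.887) and Ppm1f (0.868), and Nampt most like Dcun1d5 (0.911) and Dnajb6 (0.909). Among the 6 rich libraries alone, r was 0.0253 for Nampt with Dnajb6 and 0.87 for Adipoq with Atxn10.

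The receptors, enzymes and binding partners of the 9 members were a list of 51 genes, of which 45 passed the filter. EdgeR called 0 of 45 in each of the 7 comparisons, and the 6 that did not pass the filter were C5ar2, Apela, Agtr1b, Mas1, Cpn1 and Cpb2. The adiponectin receptors were well expressed, Adipor1 at a median of 195 CPM and Adipor2 at 668 CPM, as were C3 (1984 CPM) and Cfb (228 CPM), the complement proteins that act with adipsin. The chemerin receptor Cmklr1 had a median of 161 CPM and ranged from 64.8 to 301 CPM, and the apelin receptor Aplnr one of 43.9 CPM. Ace, the angiotensin-converting enzyme, was at a median of 228 CPM and the receptor Agtr1a at 49.3 CPM, while Ren1, which encodes renin, did not exceed 0.49 CPM in any library.

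In double mutants against SOD1-G93A, 37 of the 45 partners lay above 0 (50.1% of all genes) with a median log2 fold change of 0.22, and 2 reached an unadjusted p under 0.05 by edgeR (16.5% of all genes): Ror2, a receptor of Wnt5a (0.66 ± 0.27, adjusted p = 0.266), and Naprt, which makes NAD from nicotinic acid (0.36 ± 0.16, adjusted p = 0.277). Lymph node genes differed between these libraries too. The difference of medians on the log2 scale, poor minus rich libraries, was 0.81 for Ror2 and 0.39 for Naprt. The part of lymph node content in the partner values was not tested. In Lepob/+ against WT 30 of 45 lay above 0 (55.6% of all genes) with a median of 0.06, and the 2 at an unadjusted p under 0.05 (4.37% of all genes) were the chemerin-binding receptor Ccrl2 (0.71 ± 0.30) and Erp44, which retains adiponectin in the secretory pathway (0.20 ± 0.09). In SOD1-G93A against WT 17 of 45 lay above 0 (53% of all genes), and Lnpep was the only 1 at an unadjusted p under 0.05, beside 2.56% of all genes (0.28 ± 0.10). In double mutants against Lepob/+ 25 of 45 lay above 0 (42.1% of all genes), and Ero1l, an oxidase of the secretory pathway, was at 0.22 ± 0.10 and was not called.

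A further list of 34 other secreted factors of fat, 32 of them tested, gave 0 calls by edgeR in each of the 7 comparisons. In double mutants against SOD1-G93A 28 of 32 lay above 0 (50.1% of all genes), with a median log2 fold change of 0.59, against 0.0005 for all genes. At an unadjusted p under 0.05 there were 4 higher and 3 lower (16.5% of all genes in either direction), the lower ones, named after their values were seen, being Tnf, Serpina12 and Grem1. The smallest p-values were those of Angptl4, an inhibitor of lipoprotein lipase (0.88 ± 0.24, adjusted p = 0.261), and of the Wnt binder Sfrp1 (1.10 ± 0.35, adjusted p = 0.261). Angptl4 was at 297, 187, 290 and 250 CPM in SOD1-G93A and at 490, 481, 516 and 400.2 CPM in double mutants, which did not overlap (7.18% of all genes did not). As for the members, lymph node genes differed between these libraries, and their part was not tested.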

How the data were processed

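Per the submitters' processing notes and the methods, the authors trimmed with fastp (quality and length limits), used HISAT2 2.1.0 for alignment to mm10 and assigned uniquely mapped reads to genes by featureCounts 2.0.2. They deposited raw counts for 54752 Ensembl IDs, of which 54723 were paired with a symbol and an exon length (GENCODE, GRCm38). The annotation release and the strand setting of the counting are not given in the sources used here, and the library kit named in the labels differs from that of the methods.

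From these counts, genes were kept by filterByExpr (minimum count 10, minimum total count 15), which left 19736. In R 4.3.3, edgeR 4.0.16 fitted the 4 genotypes of all 16 libraries (TMM scaling, robust quasi-likelihood F test), and p-values were adjusted by Benjamini-Hochberg over all genes in each of 7 comparisons, at 0.05. Levels are CPM scaled by TMM; log2 values used a prior count of 1. DESeq2 1.42.0 and limma 3.58.1 (voom with quality weights) were alternatives. Correlations of log2 CPM used 100000 permutations, or all of them for 6 libraries. Fits were tested on simulated data. The members and the gene lists were chosen with earlier results of these data known. Genes named besides the members are, per list and comparison, up to 2 with the smallest p and the 2 most like each member, apart from a few that are not reported here; the receptors and enzymes given by level were picked after their values were seen, as was the lymph node split. At 36795376 to 61886313 counts per library, a member had 251 (Apln) to 354130 (Cfd) counts in a library, and the part of counting error in the spread was not separated.

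Replicate numbers are shared by the genotypes in the labels. Over 24 pairs of same-numbered libraries of different genotypes, deviations from the genotype means correlated above 0.1 in 5 and below -0.1 in 8 (median -0.0325), so the numbers were not taken to pair the mice.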

Additional observations from a re-analysis of the deposited data

Results flagged for a closer look

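In 36 groups of 4 libraries (9 members in 4 genotypes), a single library stood far from the other 3 by Dixon's test on CPM in 5. For independent, normally distributed values about 1 in 20 groups would do so. The groups share libraries and several members move together, so they are not 36 separate chances. SOD1-G93A replicate 3 accounted for 3 of them: Adipoq was at 3262 CPM against 1262 to 1428 CPM in the other 3 libraries, Sfrp5 at 36.03 against 7.02 to 10.9 CPM, and Agt at 72.0 against 6.16 to 12.6 CPM. It is the only SOD1-G93A library poor in lymph node genes (13.7 CPM summed over 8 genes, against 816 to 1290 CPM in the other 3). Sfrp5 in double-mutant replicate 3 was at 152 CPM against 21.9 to 27.5 CPM; this library, labelled female, had Y-linked RNA. Nampt in Lepob/+ replicate 4 was at 190 CPM against 90.1 to 99.4 CPM; this library held 160300 CPM of 8 skeletal muscle genes. The part of these features in the values was not tested.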

How the results depend on the processing

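The number of members called stayed at 0 of 9 in each of the 7 comparisons that could be fitted under other scalings and filters, DESeq2, fits of the compared genotypes alone (4 comparisons), both covariates, without 2 libraries together (Lepob/+ replicate 4 and double-mutant replicate 3), within the libraries poor (4 comparisons) or rich (2 comparisons) in lymph node genes (added after the data were seen) and without each library in turn (lowest 0, highest 0). The exception was limma voom with quality weights, which called 5 in double mutants against SOD1-G93A and 4 for Lepob/+ carriers; the cause was not tested. With the replicate number as a block edgeR called 0 of 9 as well, and the block changed no call. Of the log2 fold changes given in the report, those of the members below turned direction, and edgeR called none of them. In Lepob/+ against WT, Adipoq (-0.13) was 0.31 by limma voom and ranged from -0.40 to 0.11 without each library in turn (0.11 without WT replicate 3, 0.0092 without Lepob/+ replicate 3), Cfd (-0.13) was 0.20 by limma voom, 0.0801 without Lepob/+ replicate 4 (alone or with double-mutant replicate 3) and 0.0656 without WT replicate 3 (lowest -0.30 without a library), and Sfrp5 (1.06) was -0.47 in the rich libraries. In SOD1-G93A against WT, Adipoq (-0.15) was 0.12 with the adipocyte covariate, 0.0185 with the lymph node covariate, 0.35 in the poor libraries and -0.61 to 0.10 without each library. In double mutants against SOD1-G93A, Adipoq (0.43) was -0.11, -0.12 and -0.40 under these 3 settings, Cfd (0.42) was -0.0449 with the adipocyte covariate and -0.0823 in the poor libraries, and Agt (1.05) was -0.46 in the poor libraries. Nampt (-0.06) was 0.0996 by limma voom, 0.0534 without the 2 libraries together, 0.11 without SOD1-G93A replicate 3 and 0.0474 without double-mutant replicate 3 (lowest -0.25). For Lepob/+ carriers Agt (0.78) was -0.0087 and Rarres2 (0.36) -0.12 with the lymph node covariate, and Rbp4 (-0.23) was 0.17 by limma voom. For SOD1-G93A carriers Rarres2 (-0.14) was 0.0011 without Lepob/+ replicate 2 (lowest -0.31). The interaction of Sfrp5 (0.76) was -0.0258 by limma voom, -0.11 with the lymph node covariate, -0.0423 without the 2 libraries together and -0.46 without double-mutant replicate 3 (highest 1.58). Over all 16 libraries 13 of 36 pairs of members and 30 of 108 pairs of a member and a cell type list passed; within the 10 poor libraries 4 and 0 passed, and within the 6 rich ones 0 and 0, with fewer libraries in each.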
